A study of Mus musculus with 6 samples.

Results

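Crossover formation genes were followed in whole foetal ovaries of mice, with and without *Srsf1* in the germ cells. The set holds 9 genes, *Msh4*, *Msh5*, *Mlh3*, *Hfm1*, *Rnf212*, *Prr19*, *Cntd1*, *Tex11* and *Ccnb1ip1*, chosen by name from the 54532 genes of the expression table. All 9 were found there once and all 9 passed the filter on low values. SRSF1 is an RNA-binding splicing factor, and the comparison asked how its loss in oocytes affected transcripts of the ovary. The 6 C57BL/6 samples were taken at 16.5 days post-coitus (dpc), when most oocytes are in meiotic prophase I. The 3 Ctrl libraries are labelled wild type. The 3 cKO libraries came from *Stra8-GFPCre Srsf1* Fl/Fl mice, in which Cre, driven by *Stra8* in germ cells entering meiosis, removes *Srsf1* exons 2, 3 and 4. Somatic cells keep the gene, and neither the number of animals per library nor the Cre and floxed alleles of the Ctrl animals are stated in the sources. The p-values therefore measure the spread between libraries, which may be technical in part.

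During meiosis, programmed DNA breaks are repaired from the homologous chromosome, and a small part of these repair events mature into crossovers that hold the homologues together until they segregate. The MutS homologues MSH4 and MSH5 form a clamp that stabilises recombination intermediates, together with the helicase HFM1 and the scaffold protein TEX11. The RING-finger proteins RNF212 and CCNB1IP1 (also called HEI10) select the sites that persist, CNTD1 and PRR19 act in the late steps, and MLH3 is part of the endonuclease that resolves the intermediates.

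In none of the 9 genes were the Ctrl and cKO libraries fully separated, against 8.68% of all genes tested. *Prr19* was the one member past the unadjusted limit, with a mean 2.13-fold higher in cKO (limma, adjusted p = 0.978). Of all genes tested, 4.43% were past that limit in either direction. *Msh5* and *Hfm1* had higher means in cKO and *Mlh3* a lower mean, each within the spread between libraries. Most members were high or low together with germ-cell genes from library to library. The *Msh5* to *Msh4* ratio within a library was higher in all 3 cKO libraries than in any Ctrl library. An exact two-sided permutation test gave p = 0.1, the smallest possible, or 0.167 after adjustment over 5 pairs. The ratio does not show which of the pair moved, and the share of other gene pairs that separate in this way was not computed.

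Reads on genes lay between 14212164 and 16784241 per library, and values are FPKM, that is read fragments scaled by gene length and by library size, so that levels of different genes can be set side by side. *Srsf1* itself was at 71.2 ± 8.61 FPKM in Ctrl against 35.3 ± 2.49 in cKO (SD, n = 3 each), with a log2 fold change of -0.99 (SE 0.13, limma, unadjusted p = 0.000158, Benjamini-Hochberg adjusted p = 0.497). The labels' protocol text names retina as the source tissue. Against this, all 10 genes of a pregranulosa cell list were above 1 FPKM in every library, and no gene of a list of 6 retina genes exceeded 2.004 FPKM in any, with *Crx* at 0 throughout. Log2 fold changes are on the log2(FPKM + 1) scale for cKO against Ctrl, and 17180 genes were tested.

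The stretches before the transcription starts of the 4 genes on which the comparisons turn most are shown here to place them in the genome, from RefSeq (GRCm38.p6), 5′ to 3′ on the gene's strand. Capitals mark TCCCGC or its reverse complement GCGGGA, the core bound by E2F6, a repressor of germline genes in somatic cells. For *Msh5* the stretch reaches back only to the nearest annotated exon upstream of the RefSeq start, and the bases beyond are not shown. The RefSeq starts are not always the outer ends of the gene spans given below. The *Msh4* and *Msh5* stretches lie inside those spans.
*Msh4*, chr3:153904892-153905141, minus strand: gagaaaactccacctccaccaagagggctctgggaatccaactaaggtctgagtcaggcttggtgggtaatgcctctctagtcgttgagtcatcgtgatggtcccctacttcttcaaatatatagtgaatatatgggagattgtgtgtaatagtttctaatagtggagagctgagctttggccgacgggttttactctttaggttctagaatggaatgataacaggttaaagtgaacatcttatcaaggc
*Msh5*, chr17:35046623-35046699, minus strand: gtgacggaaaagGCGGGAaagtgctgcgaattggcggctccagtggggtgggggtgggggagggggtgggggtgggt
*Rnf212*, chr5:108775028-108775277, minus strand: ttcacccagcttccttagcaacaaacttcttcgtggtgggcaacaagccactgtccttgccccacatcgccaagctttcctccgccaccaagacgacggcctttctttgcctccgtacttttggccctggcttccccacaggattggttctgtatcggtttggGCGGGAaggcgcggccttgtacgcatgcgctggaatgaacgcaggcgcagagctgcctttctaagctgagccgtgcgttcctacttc
*Prr19*, chr7:25301109-25301358, plus strand: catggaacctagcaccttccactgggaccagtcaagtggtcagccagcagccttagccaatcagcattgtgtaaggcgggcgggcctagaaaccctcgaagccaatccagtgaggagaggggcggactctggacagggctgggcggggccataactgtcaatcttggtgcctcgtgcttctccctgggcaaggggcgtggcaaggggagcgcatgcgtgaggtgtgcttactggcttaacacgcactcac
Promoter windows of 250 bases before and 50 after the start were found for 8 members, all except *Tex11*. The TCCCGC core, searched on both strands, was in the windows of 4 members, *Msh5*, *Hfm1*, *Rnf212* and *Ccnb1ip1*, and in 19.98% of all 32851 windows. The E-box CACGTG was in 2 members, *Rnf212* and *Cntd1*, and in 7.15% of all windows. *Msh4* and *Msh5* differed here, with 0 and 2 TCCCGC matches. These matches describe the letters around the RefSeq starts only, and the windows of *Hfm1* and *Ccnb1ip1* also lie inside their gene spans.

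*Msh4* lies on chromosome 3 (153857149-153906138, minus strand, 24 merged exons). It stood at 1.55, 3.58 and 5.62 FPKM in the Ctrl libraries and at 4.86, 1.54 and 3.63 in the cKO libraries. Both groups cover nearly the same range, with a low library in each. The means were 3.58 ± 2.04 and 3.34 ± 1.68, and the log2 fold change was -0.06 (SE 0.43, limma, unadjusted p = 0.900, adjusted p = 0.995).

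*Msh5*, whose product pairs with that of *Msh4*, lies on chromosome 17 (35028605-35046745, minus strand, 24 merged exons). Its levels were 4.20, 6.54 and 10.8 FPKM in Ctrl against 21.0, 6.25 and 13.8 in cKO. The libraries cKO 1 and cKO 3 were above every Ctrl library and cKO 2 was below Ctrl 2. The means of 7.17 ± 3.34 and 13.7 ± 7.37 gave a log2 fold change of 0.78 (SE 0.46, limma, unadjusted p = 0.130, adjusted p = 0.978). Without cKO 2 the change was 1.22 with an unadjusted p of 0.0191 in limma. With any other library left out *Msh5* did not pass the limit. The change was 0.42 without cKO 1 (limma, unadjusted p = 0.375) and 0.50 without Ctrl 1 (limma, unadjusted p = 0.339). Of the cKO libraries, cKO 2 had the lowest mean level of germ-cell genes, as given below.

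*Hfm1*, the DNA helicase gene of the set, lies on chromosome 5 (106840192-106926321, minus strand, 41 merged exons). It was at 9.41, 19.4 and 28.9 FPKM in Ctrl and at 46.4, 12.4 and 36.5 in cKO. As for *Msh5*, cKO 1 and cKO 3 were above all Ctrl libraries and cKO 2 was among the lowest. The log2 fold change was 0.64 (SE 0.56, limma, unadjusted p = 0.292), and it was 1.19 without cKO 2 (limma, unadjusted p = 0.0398). With any other library left out *Hfm1* did not pass the limit. The change was 0.28 without cKO 1 (limma, unadjusted p = 0.656) and 0.22 without Ctrl 1 (limma, unadjusted p = 0.702).

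*Tex11*, on the X chromosome (100838648-101059667, minus strand, 31 merged exons), was at 5.30, 12.6 and 22.5 FPKM in Ctrl against 17.4, 7.58 and 26.1 in cKO. The groups overlapped over most of their range, and the log2 fold change of 0.36 (SE 0.57, limma, unadjusted p = 0.550) was below its error.

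*Rnf212* lies on chromosome 5 (108729290-108774982, minus strand, 14 merged exons). It was at 2.67, 6.86 and 11.0 FPKM in Ctrl and at 11.0, 4.41 and 10.2 in cKO, for a log2 fold change of 0.36 (SE 0.49, limma, unadjusted p = 0.490). *Ccnb1ip1*, the ubiquitin ligase that acts against RNF212, lies on chromosome 14 (50789248-50807732, minus strand, 6 merged exons). It was at 1.84, 5.44 and 12.5 FPKM in Ctrl and at 8.59, 4.18 and 14.2 in cKO, with a log2 fold change of 0.54 (SE 0.61, limma, unadjusted p = 0.411). It had the widest span of the 9, the highest library being 7.70 times the lowest. In both RING-finger genes Ctrl 3 was above at least 2 of the 3 cKO libraries. *Ccnb1ip1* shares 12.4% of its exon bases with *Rpph1* on the same strand, which was listed at 0 in the table.

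*Prr19*, whose product works with CNTD1 and CDK2 on crossover-designated sites, is a short gene on chromosome 7 (25301411-25304132, plus strand, 3 merged exons). It was at 2.10, 2.04 and 5.22 FPKM in Ctrl and at 7.41, 4.95 and 7.61 in cKO. The lowest cKO library lay just below the highest Ctrl library. The means were 3.12 ± 1.82 and 6.66 ± 1.48 (SD, n = 3 each), a log2 fold change of 0.96 (SE 0.31, limma, unadjusted p = 0.0184, adjusted p = 0.978). An exact two-sided permutation test over the 6 libraries gave p = 0.2, where 0.1 is the smallest that 3 against 3 can give. These values rest on 39 to 142 reads per library. In limma the call depended on single libraries. Leaving out Ctrl 1 gave 0.80 (unadjusted p = 0.0597) and leaving out Ctrl 2 gave 0.78 (unadjusted p = 0.0644). Leaving out cKO 1 gave 0.88 (unadjusted p = 0.0573), and leaving out cKO 3 gave 0.86 (unadjusted p = 0.0593).

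*Cntd1*, a cyclin-like gene on chromosome 11 (101279012-101296317, plus strand, 13 merged exons), was the least abundant member. It was at 0.633, 0.712 and 0.868 FPKM in Ctrl and at 1.16, 0.553 and 0.924 in cKO, for a log2 fold change of 0.10 (SE 0.18, limma, unadjusted p = 0.591). Its exons share 3104 bases, or 70.2%, with those of *Becn1* on the opposite strand, which averaged 10.8 FPKM. Whether the counting used strand is not stated in the sources, and its level is therefore uncertain.

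*Mlh3*, the endonuclease gene, lies on chromosome 12 (85234520-85270599, minus strand, 13 merged exons). It was at 5.38, 6.70 and 7.40 FPKM in Ctrl and at 5.85, 4.96 and 5.87 in cKO. It varied least among the libraries, the highest being 1.49 times the lowest. The means of 6.49 ± 1.03 and 5.56 ± 0.519 gave a log2 fold change of -0.19 (SE 0.15, limma, unadjusted p = 0.252).

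**Figure D1:**
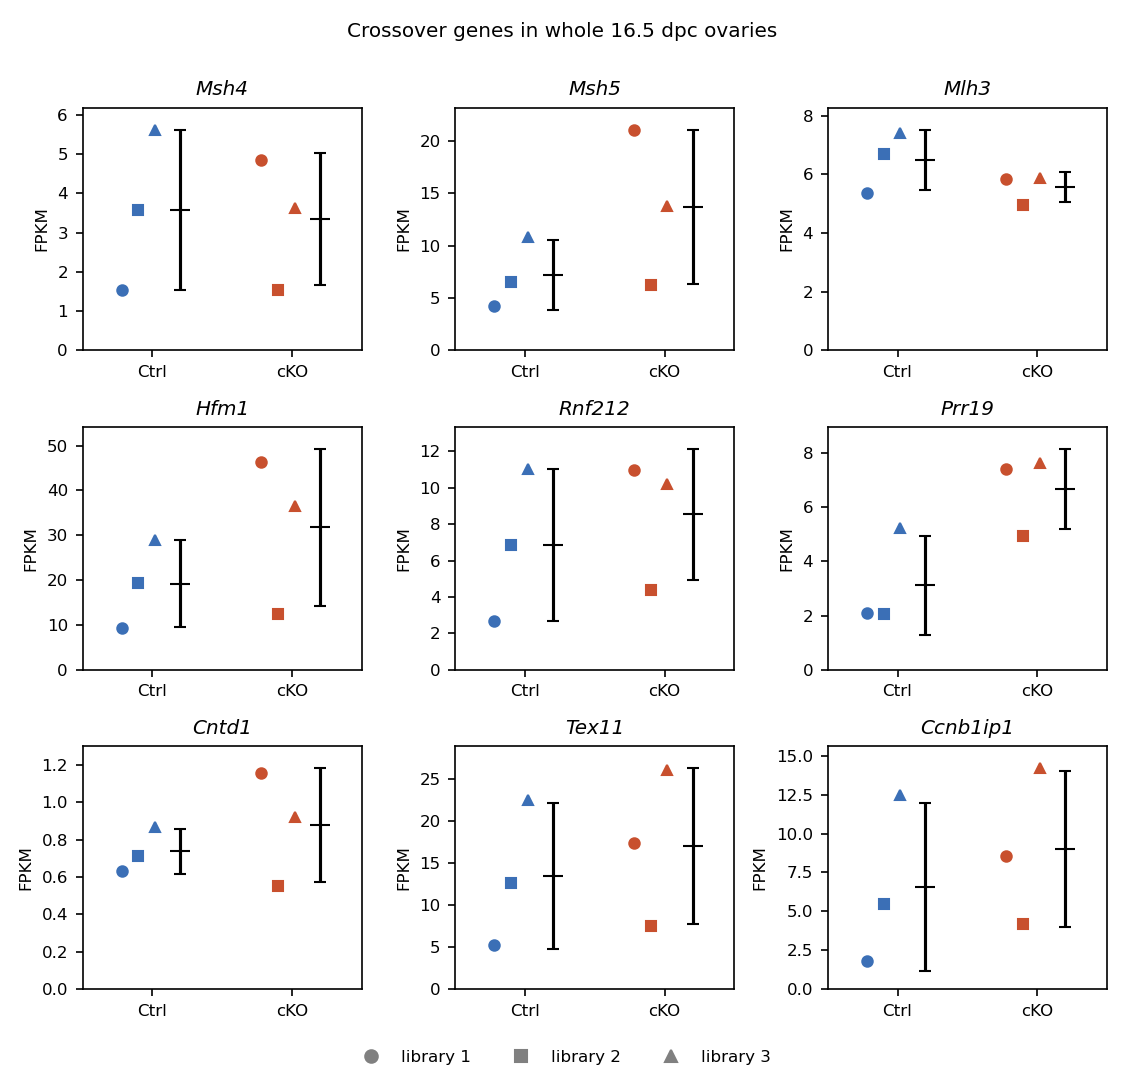
FPKM of each crossover gene in the 3 Ctrl and 3 cKO libraries (points, with the shape giving the library number), with the group mean and SD as the bar to the right. Ctrl 1 and cKO 2 are low in most panels, and the groups overlap in all 9.

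Counted together, 1 of the 9 members was higher in cKO at an unadjusted p below 0.05 and 0 were lower, where limma called 2.68% of all genes tested higher and 1.75% lower, or 4.43% in either direction. No member or other gene passed the adjusted limit in limma, and the lowest adjusted p of a member was 0.978. The log2 fold change was above 0 for 7 of 9 members, with a median of 0.36, against 47.9% and a median of -0.01 over all genes tested. Without Ctrl 1 these were 4 of 9 and -0.03, and without cKO 2 they were 8 of 9 and 0.82. Non-overlapping groups were found for 0 of 9 members and for 8.68% of all genes tested.

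The order of levels was stable at both ends and loose in between. *Hfm1* was the highest and *Cntd1* the lowest of the 9 in 6 of 6 libraries. In Ctrl the means fell from *Hfm1* through *Tex11*, *Msh5*, *Rnf212*, *Ccnb1ip1*, *Mlh3*, *Msh4* and *Prr19* to *Cntd1*, and of these neighbours only *Prr19* and *Cntd1* had ranges that did not overlap. In cKO *Ccnb1ip1* stood above *Rnf212*, and *Prr19* above *Mlh3* and *Msh4*. There the ranges of *Mlh3* and *Msh4*, and of *Msh4* and *Cntd1*, did not overlap, and all other neighbours did. *Prr19* ranked 6, 8 and 8 in Ctrl and 6, 5 and 6 in cKO, while *Msh4* ranked 8, 7 and 7 in Ctrl and 8 in each cKO library.

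The other 19 genes of the pathway, among them resolvases, the BLM helicase complex and further ZMM factors, were all tested. Of these, 1 was higher in cKO past the unadjusted limit and 0 were lower, 12 had a log2 fold change above 0, and the median was 0.10. Over all genes tested, limma called 2.68% higher and 1.75% lower, and 47.9% were above 0. The gene past the limit was *Rmi1*, a subunit of the BLM-TOP3A dissolvase, at 6.33, 6.59 and 9.58 FPKM in Ctrl and 18.6, 8.54 and 14.2 in cKO. Its groups overlapped, and its log2 fold change was 0.76 (SE 0.28, limma, unadjusted p = 0.0333, adjusted p = 0.978). The call was lost without Ctrl 1, Ctrl 2, cKO 1 or cKO 3, at 0.52 to 0.70, and with the germ-cell covariate, at 0.44 (limma, unadjusted p = 0.0690). *Shoc1*, a ZMM factor listed as AI481877, was at 7.46 ± 5.01 and 11.3 ± 5.90 FPKM, with a log2 fold change of 0.57 that limma did not call.

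Within both groups the libraries differed widely. Ctrl 1 was the lowest of the 6 libraries for 5 members (*Msh5*, *Hfm1*, *Rnf212*, *Tex11* and *Ccnb1ip1*) and cKO 2 for 3 members (*Msh4*, *Mlh3* and *Cntd1*). The summed FPKM of the 9 genes was 33.1, 63.9 and 105 in Ctrl and 124, 46.8 and 119 in cKO. A list of 10 general germ-cell genes moved in the same way, with a mean log2(FPKM + 1) of 3.48, 4.46 and 5.26 in Ctrl against 5.52, 4.28 and 5.53 in cKO. The difference of 0.71 in that mean was within the spread between libraries (exact two-sided permutation test, p = 0.3). In whole ovaries, fewer germ cells and less RNA per germ cell cannot be told apart. The summed level of the 10 pregranulosa genes lay between 630 and 763 FPKM in Ctrl and between 628 and 869 in cKO, and none of them was called. The summed level of 6 red blood cell genes was 22722, 7728 and 4831 FPKM in Ctrl and 1691, 10378 and 9714 in cKO. It was highest in Ctrl 1, where the members' sum was lowest, and lowest in cKO 1, where the members' sum was highest. Its part in the members' levels was not tested.

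The mean profile of the 9 members over the 6 libraries, each gene centred on its own mean log2(FPKM + 1), ran -0.85, -0.17 and 0.44 in Ctrl and 0.53, -0.46 and 0.51 in cKO. *Rnf212* lay closest to it, with a root mean square difference of 0.151 on the log2 scale, and *Mlh3* lay farthest at 0.463. Among 13473 other protein-coding genes, whose median difference was 0.572, the profiles nearest to the mean were those of *Rnls* at 0.0536, *Tmem62* at 0.0823, *Lonrf3* at 0.0839, *Mcm8* at 0.0842 and *Grk4* at 0.0928. *Mcm8*, a helicase subunit gene for meiotic break repair, also belongs to the 19 other pathway genes. This is a description over 6 libraries that share their tissue and depth, with no test.

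The fold changes were also estimated with the mean level of the germ-cell list as a covariate, which asks how the groups differ at a like level of germ-cell transcripts. In this fit 3 members were lower in cKO at an unadjusted p below 0.05, *Msh4*, *Mlh3* and *Rnf212*, and 1 was higher, *Prr19*. Of all genes, limma called 3.67% lower and 2.29% higher, or 5.96% in either direction. The list mean was 0.71 higher in cKO, so the estimate of a gene that follows the list is lowered in this fit. The share called among genes that follow the list was not computed, and the counts are not read as a result about the members. No gene passed the adjusted limit in this fit, and 2 of 9 members were above 0. Their median was -0.28. *Msh4* changed from a log2 fold change of -0.06 to -0.62 (SE 0.16, limma, unadjusted p = 0.00710, adjusted p = 0.630). At nearly the same germ-cell list level, Ctrl 2 held 3.58 FPKM of *Msh4* and cKO 2 held 1.54. *Mlh3* was at -0.33 (SE 0.11, limma, unadjusted p = 0.0274), *Rnf212* at -0.31 (SE 0.12, unadjusted p = 0.0480) and *Prr19* at 0.61 (SE 0.22, unadjusted p = 0.0295). *Tex11* at -0.41 (limma, unadjusted p = 0.0618), *Ccnb1ip1* at -0.28, *Hfm1* at -0.10, *Cntd1* at -0.03 and *Msh5* at 0.21 did not pass. *Tex11* did pass with *Ddx4* and *Dazl* alone as the germ-cell measure (-0.67, limma, unadjusted p = 0.00558), in limma voom (-0.44, unadjusted p = 0.0438) and without cKO 3 (-0.51, unadjusted p = 0.00980).

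These 4 calls were not equally stable. The *Msh4* estimate stayed past the unadjusted limit with each library left out in turn, at -0.70 to -0.56 with unadjusted limma p-values of 0.00576 to 0.0450. It also stayed past it with *Ddx4* and *Dazl* alone as the germ-cell measure (-0.79, limma, unadjusted p = 0.00787), with the list without *Dazl* (-0.55, limma, unadjusted p = 0.00950) and in limma voom on recovered reads (-0.81, unadjusted p = 0.00221). The *Mlh3* call in limma was lost on leaving out Ctrl 2 (-0.31, unadjusted p = 0.0992) or Ctrl 3 (-0.32, unadjusted p = 0.137). It was also lost on leaving out cKO 1 (-0.32, unadjusted p = 0.0616) and cKO 3 (-0.32, unadjusted p = 0.0516). The *Rnf212* call was lost without any 1 of 5 libraries, Ctrl 1 being the exception, and its value without Ctrl 2 was -0.25 (limma, unadjusted p = 0.165). It was also lost in limma voom (-0.36, unadjusted p = 0.102) and without *Dazl* in the list (-0.23, unadjusted p = 0.0973). The *Prr19* call was lost without Ctrl 2 (0.41, unadjusted p = 0.0525), cKO 1 (0.63, unadjusted p = 0.0535) or cKO 2 (0.52, unadjusted p = 0.163), and with *Ddx4* and *Dazl* alone (0.51, unadjusted p = 0.0796), all in limma.

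**Figure D2:**
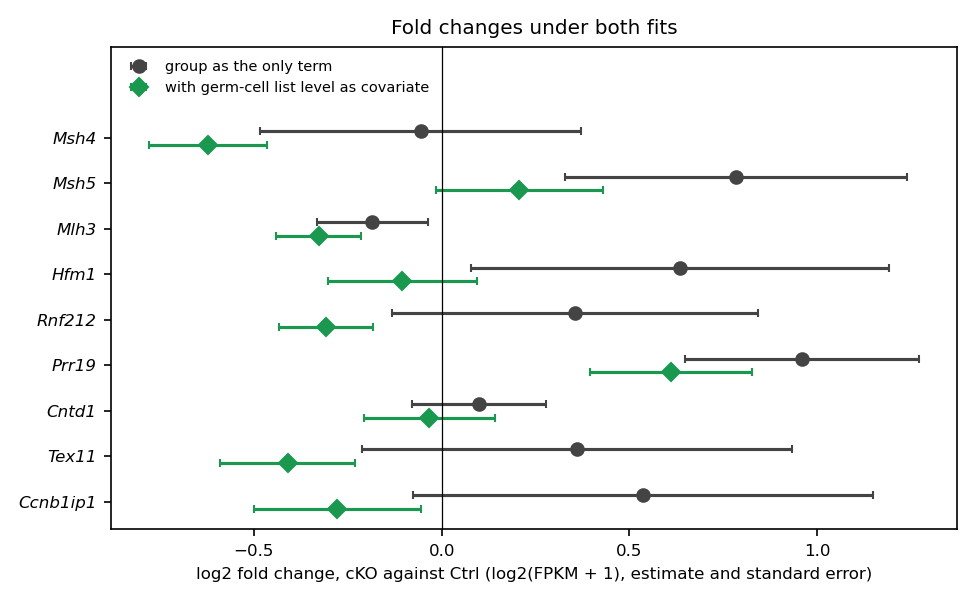
Log2 fold change of each member, cKO against Ctrl, with its standard error, from the fit with group as the only term (circles) and with the germ-cell list level as a covariate (diamonds). All 9 estimates shift to lower values with the covariate, and *Msh4* moves from -0.06 to -0.62. The covariate mean was 0.71 higher in cKO (exact two-sided permutation test, p = 0.3), so the direction of the shift is fixed for any gene that rises with it.

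A simpler measure subtracts the germ-cell list mean from each member within each library. *Msh4* then stood at -2.13, -2.26 and -2.53 in Ctrl and at -2.97, -2.93 and -3.32 in cKO, on the log2 scale. Every cKO library was below every Ctrl library, and the difference was -0.76. *Rnf212* stood at -1.61, -1.49 and -1.67 in Ctrl and at -1.94, -1.84 and -2.04 in cKO, again without overlap, with a difference of -0.35. Both gave p = 0.1 in an exact two-sided permutation test, the smallest that 3 against 3 can give, among 9 such comparisons. After Benjamini-Hochberg adjustment over the 9 members both were at 0.45. The groups did not overlap for these 2 of 9 members and, in the same direction, for 2.44% of all genes tested, or 2.59% in either direction. Before the subtraction the share of all genes tested was 8.68%. A gene that does not follow the list takes on the spread of the list in the subtraction. The share among genes that do follow it was not computed. The differences of the other members were -0.89 for *Mlh3*, -0.61 for *Cntd1*, -0.35 for *Tex11*, -0.17 for *Ccnb1ip1*, -0.07 for *Hfm1*, 0.08 for *Msh5* and 0.25 for *Prr19*, and in each of these the groups overlapped. With 1 library left out they ranged from -1.24 to -0.55 for *Mlh3*, -0.98 to -0.19 for *Cntd1*, -0.51 to -0.23 for *Tex11*, -0.33 to -0.0036 for *Ccnb1ip1* and 0.0077 to 0.55 for *Prr19*. Each difference is the member's own log2 fold change less the 0.71 by which the list mean was higher in cKO. That 0.71 was itself within the spread between libraries (exact two-sided permutation test, p = 0.3). The own log2 fold change was -0.06 for *Msh4* and -0.19 for *Mlh3*, so most of their differences is the change of the list. For *Rnf212* it was 0.36, and the difference is below 0 only through the list.

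*Rnf212b*, a paralogue of *Rnf212* among the 19 other pathway genes, was singled out after its values were seen. It was at 2.62, 6.68 and 12.1 FPKM in Ctrl and 6.47, 2.56 and 5.85 in cKO. Its log2 fold change was -0.34 (limma, unadjusted p = 0.524) without the covariate and -1.01 with it (SE 0.14, limma, unadjusted p = 0.000324, adjusted p = 0.455). Relative to the germ-cell list it was lower in every cKO library than in any Ctrl library, with a difference of -1.04. The other of the 2 pathway genes lower with the covariate was *Eme1*, a subunit of the MUS81 resolvase, at -0.57 (limma, unadjusted p = 0.0484), also named after its values were seen.

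**Figure D3:**
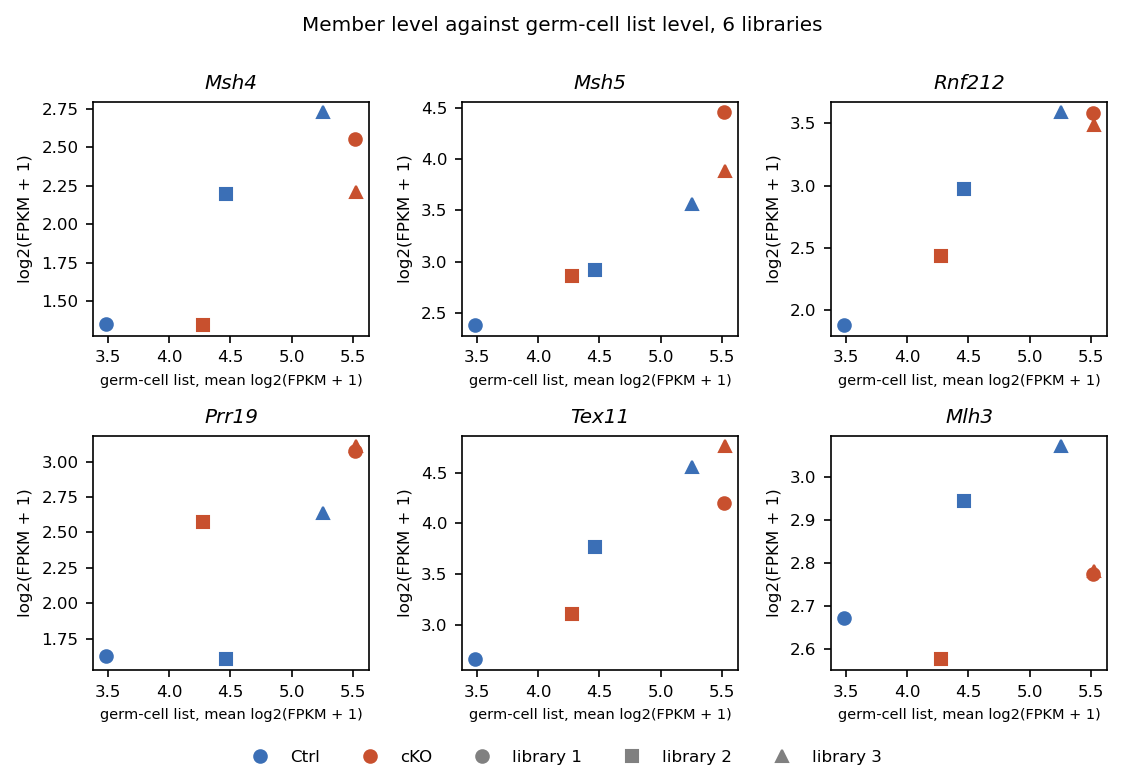
Log2(FPKM + 1) of 6 members against the mean log2(FPKM + 1) of the germ-cell list in the 3 Ctrl (blue) and 3 cKO (red) libraries, with the shape giving the library number. For *Msh4* the cKO points lie below the Ctrl points at like germ-cell level, and for *Msh5* the libraries Ctrl 2 and cKO 2 lie side by side, at 6.54 and 6.25 FPKM.

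A ratio of 2 genes within a library needs no germ-cell list where both are made in the same cells. The *Msh5* to *Msh4* ratio of FPKM was 2.71, 1.82 and 1.92 in Ctrl against 4.32, 4.07 and 3.81 in cKO. The 3 cKO libraries were close to each other and all above Ctrl, with means of 2.15 ± 0.488 and 4.06 ± 0.257 (SD, n = 3 each). On the log2(FPKM + 1) scale the ratio was 0.84 higher in cKO, and between 0.74 and 0.93 with 1 library left out. The exact two-sided permutation test gave p = 0.1, the smallest possible, and 0.167 after Benjamini-Hochberg adjustment over the 5 pairs examined. A ratio shows that the pair moved unequally and not which of the pair moved. How often the groups separate in this way for other pairs of genes made in the same cells was not computed. This holds for the other pairs below as well.

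The *Prr19* to *Cntd1* ratio was 3.31, 2.87 and 6.01 in Ctrl and 6.41, 8.96 and 8.24 in cKO, also without overlap (log2 difference 0.86, exact permutation p = 0.1, adjusted 0.167). The overlap of *Cntd1* with *Becn1* bears on this value. The *Tex11* to *Shoc1* ratio was 1.89, 1.85 and 1.77 in Ctrl and 1.20, 1.69 and 1.75 in cKO, for a log2 difference of -0.21 on the log2(FPKM + 1) scale (exact permutation p = 0.2) that was -0.06 without cKO 1. The FPKM ratios themselves did not overlap, and with a pseudocount of 0.1 or 0.5 the exact permutation test gave p = 0.1. For *Rnf212* to *Ccnb1ip1* the groups overlapped, with a log2 difference of -0.18 (exact permutation p = 0.6).

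**Figure D4:**
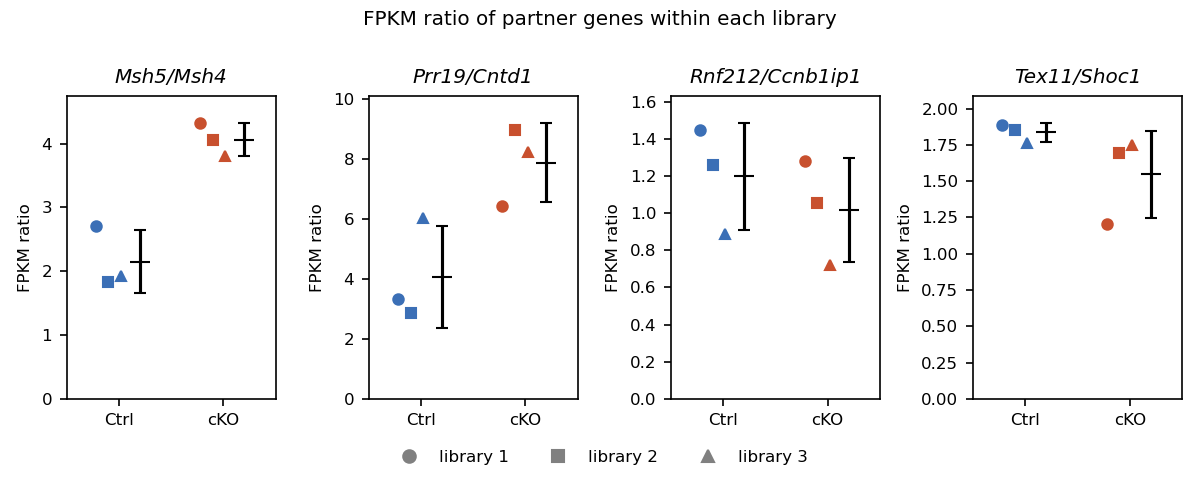
FPKM ratio of 4 pairs of partner genes within each of the 3 Ctrl and 3 cKO libraries (points), with the group mean and SD. For *Msh5* to *Msh4* the cKO libraries sit between 3.81 and 4.32, above the Ctrl libraries at 1.82 to 2.71.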

How the data were processed

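RNA of whole mouse ovaries was sequenced by the authors in 6 libraries, grouped by their labels into 3 Ctrl and 3 cKO. Paired-end reads were aligned with HISAT2 2.0.5 to mm10 (GRCm38) and counted per gene with featureCounts, and the authors deposited FPKM values. The sources state neither which annotation release was counted nor whether strand was used. Gene lengths in the table equal those of GENCODE M21 for the 9 members, and positions and exons are from that annotation. FPKM times gene length gave whole reads, within 0.05 of a read, for all values. No 2 libraries were identical.

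From the FPKM values, genes averaging 0.5 FPKM or more over the libraries (17180) were taken, and their log2(FPKM + 1) was fitted by group in limma 3.58.1 (R 4.3.3, trended variance, two-sided). The limit was an unadjusted p below 0.05, as in the methods of the study, and Benjamini-Hochberg adjusted p-values are over all genes tested. The fit was checked on simulated data. A second fit added the mean of 10 germ-cell genes. Single values were compared with exact permutation tests in Python 3.11.15 with numpy 2.4.6. Alternatives were pseudocounts of 0.1 and 0.5, other minimum levels, 2 other scalings, limma voom on recovered reads, no trend, protein-coding genes alone, a replicate block and leaving out each library. The repeats of the covariate fit, and the retina list, were added after the data were seen.

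The members, the gene lists and the tests were chosen with earlier results of these data known. Named genes are the 9 members, *Srsf1*, other pathway genes past the unadjusted limit or in a partner pair, the 5 genes nearest to the members' mean profile, and genes that overlap a member. *Rnf212b* and *Eme1*, which passed the unadjusted limit with the covariate alone, were named after their values were seen. Lists for stroma, immune cells, endothelium and mesonephros had 0 genes past the limit, and the germ-cell list had 1 (*Dazl*, higher). The red blood cell list had 1 (*Hbb-y*, higher), which was the only 1 of its 6 genes above 0. The median log2 fold change of that list was -0.73. The values of 1 of the 5 pairs of partner genes, over which p-values were adjusted, and of 1 of its genes are not reported here. Splicing was not analysed here, since gene-level values hold no junctions.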

Additional observations from a re-analysis of the deposited data

How the results depend on the processing

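At 3 libraries against 3, and with the spread of germ-cell transcripts among them, differences in these genes of the size of their standard errors could not be detected. Srsf1 kept its fall and its call in every setting. The count of genes past the unadjusted limit was 736 higher and 595 lower with no minimum level, and 631 were lower with the germ-cell covariate. With 1 library left out it ranged from 201 to 1457 higher and from 163 to 1036 lower, the highest being without cKO 2. Members called higher ranged from 0 to 3, again with the highest without cKO 2, and other crossover genes called ranged from 0 to 4 higher and from 0 to 1 lower. With the covariate, members called lower were 3, and other crossover genes were 0 higher and 2 lower. Without the covariate, the smallest adjusted p over all genes was 0.392, and ranged from 0.00129 without Ctrl 1, where 4 genes that are not members passed the adjusted limit, to 0.989 in limma voom. With it, 2 genes passed the adjusted limit in limma voom and 1 without Ctrl 1, and no member did.

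Of the members, Shoc1 and Mcm8, the fold changes that turned sign with the covariate were those of Hfm1 (-0.10), Rnf212 (-0.31), Cntd1 (-0.033), Tex11 (-0.41), Ccnb1ip1 (-0.28), Shoc1 (-0.22) and Mcm8 (-0.18), and the mean of the covariate was 0.71 higher in cKO. With 1 library left out, sign also turned for Msh4 (-0.43 to 0.29), Rnf212 (-0.11 to 0.74), Cntd1 (-0.0056 to 0.23), Tex11 (-0.14 to 0.82), Ccnb1ip1 (-0.034 to 1.09) and Rnf212b (-0.83 to 0.10). In the covariate fit it turned for Hfm1 (-0.41 to 0.22) and Cntd1 (-0.12 to 0.11). The Rnf212 to Ccnb1ip1 ratio ran from -0.35 to 0.028, and levels relative to the germ-cell list from -0.080 to 0.25 for Msh5 and from -0.23 to 0.062 for Hfm1. The Rmi1 call was lost without Ctrl 1, Ctrl 2, cKO 1 or cKO 3 (0.52 to 0.70) and with the covariate (0.44, limma, unadjusted p = 0.0690).

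The replicate numbers showed no sign of pairing the libraries. Deviations of same-numbered libraries correlated at -0.39, -0.03 and 0.12, and those of differently numbered libraries lay between -0.34 and 0.35. Whether libraries share a litter or batch was not tested. With the replicate block limma called 434 genes higher and 247 lower, and 1 member, Prr19, at an unadjusted p of 0.00839.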
